A study of Mus musculus with 65 samples.

Results

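The cell-cycle and DNA replication genes examined here are 37 genes chosen by name and found by symbol among the 50686 genes of the deposited count table. They fall into 23 mitotic members and 14 replication members. All 37 symbols were found. The mitotic members encode the proliferation marker Mki67, the DNA-untangling enzyme Top2a, the kinase Cdk1 with its cyclins, the aurora and polo kinases, checkpoint and centromere proteins, spindle motors and the ubiquitin machinery of mitotic exit. The replication members encode the MCM helicase that opens DNA at origins, the sliding clamp Pcna, the enzymes that make deoxynucleotides (Rrm1, Rrm2, Tyms and Tk1), the methylation maintenance factor Uhrf1 and the E-type cyclins that drive entry into S phase. As background, a cell makes most of these RNAs only while it cycles, replication genes first under E2F factors and mitotic genes later, and the neurons of an adult retina have left the cycle. Microglia, the resident macrophages of the retina, can divide after they have been removed, which is why these genes bear on repopulation.

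Retinal RNA came from 65 adult C57BL/6J mice in 16 groups, and each library was 1 mouse. CD mice (n = 5, labelled vehicle) were on control diet. DEP mice received PLX5622, an inhibitor of the receptor CSF1R on which microglia depend for survival, for the number of days in the group name (DEP2, DEP5, DEP7, DEP10, DEP14 and DEP21), and REPOP mice were returned to control diet after 14 days of PLX5622 for the number of days in the name (REPOP3, REPOP5, REPOP7, REPOP10, REPOP14, REPOP21 and REPOP60). LPSCD mice (n = 3) received lipopolysaccharide with vehicle, and LPSREPOP mice (n = 4) received it with PLX5622 and are described by the study as repopulated, for a time that the labels do not give. DEP5 held 3 mice, REPOP7 held 6 and every other DEP or REPOP group held 4. The RNA was that of the whole retina, so fewer cells of a type and less RNA per cell cannot be told apart.

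The promoters show how the genes are grouped in sequence. RefSeq promoters of GRCm38.p6, from 250 bases before to 50 bases after the gene start, were found for 31 of the 37 genes. The cell cycle homology region (CHR, letters TTTGAA or TTCGAA), a motif of genes with a mitotic peak, was present on either strand in 78.9% of the 19 mitotic promoters, in 16.7% of the 12 replication promoters and in 19.2% of the 32851 promoters of the table. The CCAAT box (CCAAT) was present in 89.5%, 75.0% and 37.4% of them. Exact E2F letters (TTTGGCGC, TTTCCCGC, TTTCGCGC or TTTGCCGC) were present in 5.26%, 33.3% and 2.26%. These are letter matches and not bound sites, and no motif overlapped another in the 4 promoters printed here, which belong to the low-count genes that the results turn on. Capitals mark the motifs, on either strand.
Mki67 (chr7:135716330-135716629, minus strand): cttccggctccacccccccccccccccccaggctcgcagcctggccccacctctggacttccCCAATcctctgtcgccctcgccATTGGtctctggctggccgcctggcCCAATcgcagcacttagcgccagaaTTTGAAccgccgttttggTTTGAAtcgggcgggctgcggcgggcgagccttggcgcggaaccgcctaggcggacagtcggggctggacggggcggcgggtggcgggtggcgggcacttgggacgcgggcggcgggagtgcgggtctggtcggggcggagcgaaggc
Top2a (chr11:99024140-99024439, minus strand): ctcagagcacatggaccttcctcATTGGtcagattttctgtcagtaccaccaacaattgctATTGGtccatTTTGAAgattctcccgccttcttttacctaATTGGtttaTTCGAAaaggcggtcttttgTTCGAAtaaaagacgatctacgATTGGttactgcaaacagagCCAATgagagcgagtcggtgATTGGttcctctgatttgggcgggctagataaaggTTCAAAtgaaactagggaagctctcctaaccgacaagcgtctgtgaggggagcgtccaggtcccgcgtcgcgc
Cdk1 (chr10:69352863-69353162, minus strand): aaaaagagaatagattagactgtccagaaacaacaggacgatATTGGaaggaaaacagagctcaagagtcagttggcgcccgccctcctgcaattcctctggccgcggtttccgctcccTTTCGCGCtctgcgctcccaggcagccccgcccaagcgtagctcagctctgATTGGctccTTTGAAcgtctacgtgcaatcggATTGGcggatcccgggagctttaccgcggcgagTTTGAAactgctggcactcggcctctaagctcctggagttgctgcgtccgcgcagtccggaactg
Rrm2 (chr12:24708004-24708303, plus strand): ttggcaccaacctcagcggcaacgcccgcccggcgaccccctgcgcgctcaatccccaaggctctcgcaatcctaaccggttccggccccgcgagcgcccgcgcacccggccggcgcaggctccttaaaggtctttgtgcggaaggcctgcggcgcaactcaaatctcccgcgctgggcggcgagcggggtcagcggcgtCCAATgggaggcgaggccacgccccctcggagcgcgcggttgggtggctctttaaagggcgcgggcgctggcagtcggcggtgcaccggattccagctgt
Mki67, Top2a and Cdk1 held both the CHR and the CCAAT box, and Cdk1 alone of the 4 held an E2F match. Rrm2 held 1 CCAAT box and neither of the other motifs in this window.

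The total count per mouse was 5106429 to 8760443 (median 7944665), so that 3 counts, the floor used here, correspond to 0.342 to 0.587 CPM (counts scaled to libraries of a common size). The smallest library was REPOP21 replicate 1, and the next smallest held 7367693 counts. Sample titles end in RE (39 mice) or re (26 mice), and the first principal component, which held 54.9% of the variance over 12346 genes, put every re mouse (-38.1 to -19.8) below every RE mouse (-6.91 to 32.5). REPOP60, LPSCD and LPSREPOP were all re, DEP5 was all RE, CD held 3 RE and 2 re mice (replicates 1 and 2M), REPOP7 held 3 of each (replicates 1 to 3 are re), and in the other groups replicate 1 was re and the remaining 3 were RE. The suffix therefore entered every comparison whose groups were not all re. In LPSCD vs CD and REPOP60 vs CD the difference with the suffix term rests on the 2 re mice of CD, and in REPOP60 vs DEP14 on the 1 re mouse of DEP14.

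Most of the 37 genes were measured at a steady level in the control retina, and 10 were barely detected. On the CPM scale per 1000 exon bases, the mean level over 65 mice was highest for the cyclin Ccna2 at 11.8, the clamp Pcna at 10.4 and the checkpoint kinase Bub1b at 7.6. It was lowest for Top2a at 0.00924, the cyclin Ccnb1 at 0.0127 and Mki67 at 0.0157. The 10 genes whose mean CPM lay under 3 counts of the median library were Mki67, Top2a, Cdk1, Ccnb1, Aurkb, Bub1, Ube2c, Cdc20, Rrm2 and Uhrf1, and the other 27 lay above it. A sum over the mitotic genes is therefore mostly other genes: Ccna2 and Bub1b made 62.7% of the summed mitotic CPM, and the low-count genes made 0.953%. Among the replication genes Rrm1 and Pcna made 41.7%. Levels of Ccna2, Kif20a, Ccne2, Prc1, Mcm7 and Ube2c are uncertain because 11.1% to 29.3% of their exon bases overlap other genes, mostly on the opposite strand, and the sources used here do not say whether strand was used in counting. In the CD mice Kif20a, a motor of cytokinesis, had 15.2 ± 3.65 CPM (SD, n = 5) but 0.225 ± 0.101 FPKM in the authors' own estimate, and Cdc23 had 79.8 ± 4.83 CPM.

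**Figure D1:**
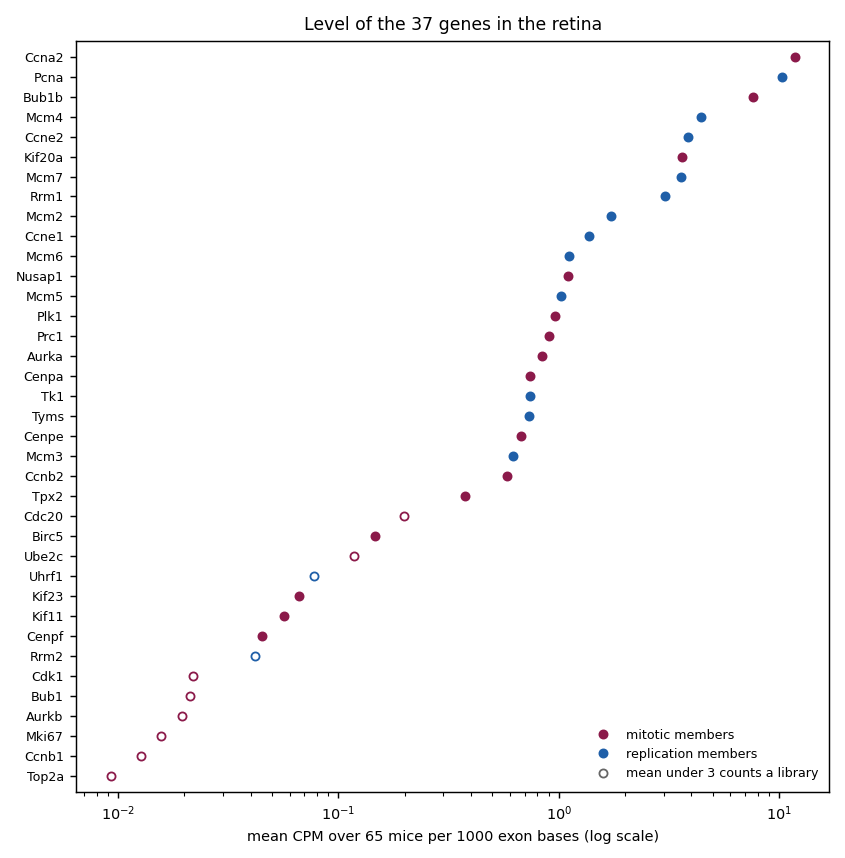
Mean level of each of the 37 genes over the 65 mice, in CPM per 1000 exon bases on a log scale, with mitotic members in dark red, replication members in blue and open circles for the 10 genes whose mean lay under 3 counts a library. Ccna2 and Pcna stand at the top and Top2a, Ccnb1 and Mki67 at the bottom.

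Mki67, the gene of the proliferation antigen Ki-67 (ENSMUSG00000031004, chr 7, 135689784 to 135716361 on mm10), had its highest counts of the repopulation course at day 14. The 5 CD mice had 0, 0, 0, 1 and 1 counts (replicates 1, 2, 3, 4 and 2M), and the 4 DEP14 mice had 1, 1, 0 and 0. During depletion as a whole no mouse exceeded 2 counts, and all mice of DEP5 and DEP21 were at 0. After the return to control diet the counts were 1, 1, 0 and 0 at REPOP3, 1, 0, 0 and 1 at REPOP5, and 2, 0, 1, 0, 0 and 1 at REPOP7. These early repopulation mice overlapped CD. The counts were 1, 1, 0 and 3 at REPOP10, then 7, 6, 4 and 5 at REPOP14, then 0, 0, 5 and 0 at REPOP21 and 1, 1, 0 and 1 at REPOP60. Each REPOP14 mouse was above every CD, DEP14, REPOP3, REPOP5, REPOP7, REPOP10 and REPOP60 mouse, and among the mice without lipopolysaccharide REPOP21 replicate 3 was the sole other mouse that reached the REPOP14 range. In CPM the REPOP14 mice stood at 0.909, 0.773, 0.465 and 0.624, and both suffixes were high there, with 0.928 pooled CPM in the re mouse and 0.607 over the RE mice.

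Pooled over the mice of a group, Mki67 had 22 counts at REPOP14, a pooled CPM (the group's counts over its raw total) of 0.682 (95% exact Poisson interval 0.428 to 1.03). The same value was 0.05 (0.00605 to 0.181) in CD, 0.0624 (0.00756 to 0.226) at DEP14, 0.157 (0.0511 to 0.367) at REPOP10 and 0.171 (0.0555 to 0.399) at REPOP21. The ratio of REPOP14 to CD was 13.7 with a wide interval of 3.36 to 119.8, because CD held 2 counts, and the ratio to DEP14 was 10.9 (2.69 to 95.9). REPOP10 (3.15, 0.515 to 33.0) and REPOP21 (3.42, 0.560 to 35.9) had ratios to CD whose intervals include 1. These intervals reflect counting error and leave out differences between mice.

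**Figure D2:**
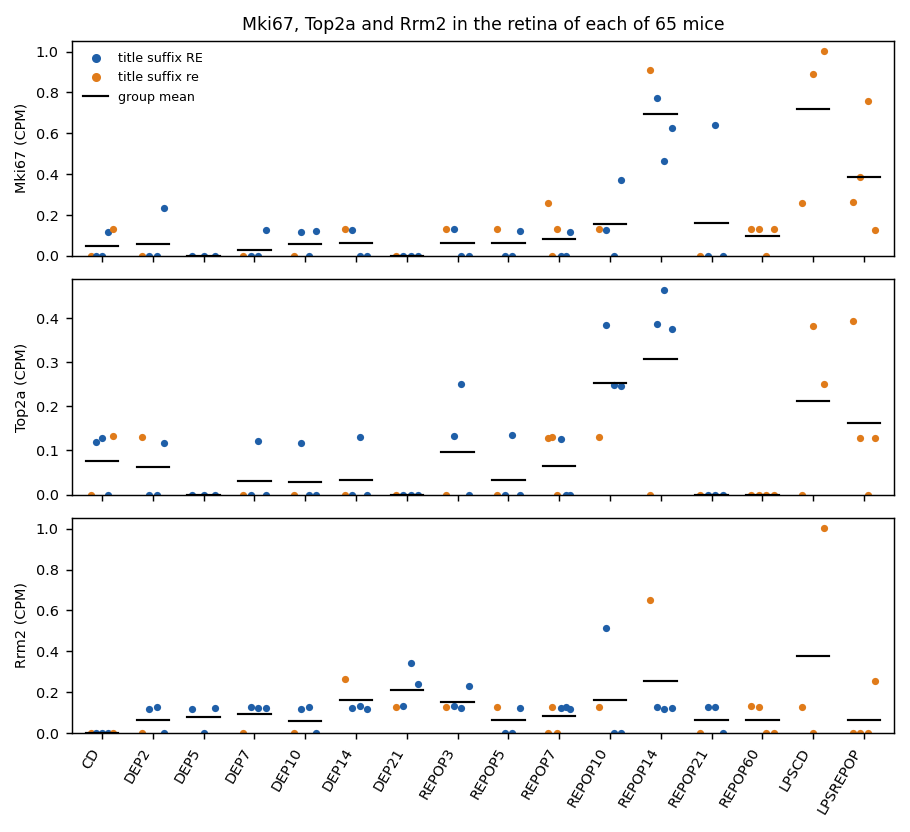
CPM of Mki67, Top2a and Rrm2 in each of the 65 mice by group, with points coloured by title suffix and a black line at the group mean. All 4 REPOP14 mice stand at 0.465 CPM or more for Mki67, while for Rrm2 the highest mice are 1 of LPSCD at 1 CPM, 1 re mouse of REPOP14 at 0.649 and 1 mouse of REPOP10 at 0.513.

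In the test between REPOP14 and CD, Mki67 had a log2 fold change of 3.50 ± 0.74 (SE) with an unadjusted p of 8.05e-05 in edgeR's quasi-likelihood test across all genes. Its FDR was 0.215, above the threshold of 0.01 that the study set together with an absolute log2 fold change above 1 for a differentially expressed gene (DEG). It was 0.0212 with no filter on low counts and 0.213 to 1 under the other alternatives. Against DEP14 the log2 fold change was 3.16 ± 0.76 (FDR 0.498) and against REPOP10 it was 2.02 ± 0.66 (FDR 0.975, edgeR). REPOP21 was lower than REPOP14 by a log2 fold change of -1.89 ± 0.77 (FDR 0.608, edgeR). Mki67 was thus not called on any single repopulation day, although its counts in REPOP14 and CD did not overlap.

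The other low-count genes of mitosis did not all share the days of Mki67. Top2a, which relaxes and separates DNA strands, had 0, 1, 1, 0 and 1 counts in CD and 0, 0, 1 and 0 at DEP14. It had 1, 3, 2 and 2 counts at REPOP10 and 0, 3, 4 and 3 at REPOP14. It was at 0 in all mice of REPOP21 and REPOP60, where pooled counts of 0 allow up to 0.126 and 0.123 pooled CPM. The 3 RE mice of REPOP14 and 3 of the 4 REPOP10 mice were above every CD mouse, and REPOP14 replicate 1, the re mouse, was at 0. The pooled ratio to CD was 4.14 (1.07 to 23.4) at REPOP14 and 3.36 (0.805 to 19.6) at REPOP10. Against DEP14, Top2a had a log2 fold change of 2.80 ± 1.04 at REPOP14 and 2.51 ± 1.10 at REPOP10, each with an FDR of 1 in edgeR.

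Cdk1, the kinase that starts mitosis, had 1, 0, 0, 0 and 0 counts in CD. It had 2, 1, 1 and 3 at REPOP3, which is its highest group mean, and 0, 1, 1 and 1 at REPOP14, so that its pattern overlapped that of CD at day 14. The REPOP3 log2 fold change against CD was 2.65 ± 1.03 (FDR 0.879, edgeR). Ccnb1, the cyclin partner of Cdk1, had 0, 1, 0, 1 and 0 counts in CD, 0, 1, 1 and 1 at REPOP14 and 0 in every REPOP21 mouse. Birc5, which encodes survivin of the chromosomal passenger complex, had 5, 2, 2, 3 and 2 counts in CD, 11, 5, 5 and 8 at REPOP3 and 4, 4, 7 and 1 at REPOP14. For Birc5 the REPOP3 mice were at or above the highest CD mouse, with a log2 fold change of 1.46 ± 0.44 and an FDR of 0.879 in edgeR.

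Rrm2, the regulated subunit of ribonucleotide reductase, was at 0 in all 5 CD mice. Its counts were 5, 1, 1 and 1 at REPOP14, 2, 1, 1 and 1 at DEP14, 1, 1, 3 and 2 at DEP21, and 1, 4, 0 and 0 at REPOP10. In LPSCD they were 1, 0 and 8. Against an assumed 3 counts in CD, the Rrm2 ratio was 3.31 at REPOP14, 2.89 at DEP21, 2.10 at REPOP10 and 2.08 at DEP14. These ratios have no interval. They leave out the counting error of the higher group and are not lower bounds. Counts above 0 were spread over depletion and repopulation groups alike, and 1 mouse gave 5 of the 8 counts at REPOP14 and 1 mouse gave 8 of the 9 in LPSCD.

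All 10 low-count genes together gave a pooled CPM of 1.40 in CD (1.06 to 1.82), 1.70 at REPOP3, 1.44 at REPOP5, 1.71 at REPOP7, 1.98 at REPOP10, 2.54 (2.02 to 3.16) at REPOP14 and 1.26 at REPOP21. The ratio of REPOP14 to CD was 1.82 (1.28 to 2.60). Without Mki67 it was 1.38 (0.939 to 2.03), an interval that includes 1, so a large share of the difference lay in 1 gene. The REPOP14 mice held 15 to 23 such counts and the CD mice 9 to 14, with no overlap.

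The day of the highest Mki67 counts was not the day on which microglial RNA was highest. The summed CPM of 20 microglial markers was 69.6 to 90.4 in CD (median 76.2) and 20.8 to 30.3 at DEP14, where 11 of the 20, among them Cx3cr1, Tmem119 and Siglech, were at 0 in all mice. It was 25 to 31.5 at REPOP7 with 2 markers at 0, 32.1 to 44.5 at REPOP10, 52.3 to 64.9 at REPOP14, 56.5 to 67.2 at REPOP21 and 59.5 to 68.8 at REPOP60, with none at 0 in the last 4 groups. Per 1000 microglial marker counts, Mki67 had 0.648 counts in CD (0.0785 to 2.34), 2.41 at DEP14 (0.292 to 8.74), 4.25 at REPOP10 (1.38 to 9.94), 11.7 at REPOP14 (7.33 to 17.8), 2.79 at REPOP21 (0.906 to 6.53) and 1.49 at REPOP60 (0.308 to 4.37). The intervals at REPOP14 and CD do not overlap, nor do those at REPOP14 and REPOP21, and REPOP14 and REPOP10 do overlap. All these intervals are of counts pooled over mice and leave out differences between mice. At REPOP21, 1 mouse gave all 5 Mki67 counts. The marker sum still held 20.8 to 30.3 CPM at DEP14, so the ratio was also taken, as a choice made after the values were seen, to the 11 markers that were at 0 there. It was then 2.95 in CD (0.356 to 10.7), 54.9 at REPOP10 (17.4 to 133), 57.4 at REPOP14 (35.6 to 88.2), 12.8 at REPOP21 (4.14 to 30.2) and 7.03 at REPOP60 (1.44 to 20.7), and 16.4 in LPSCD (9.54 to 26.5) and 14.1 in LPSREPOP (7.27 to 24.8). On this scale REPOP10, with 91 marker counts, stood beside REPOP14, and REPOP7 with 25 marker counts stood at 160 (40.5 to 463). The 11 markers were picked for being at 0 at DEP14, so few of their counts were left in depletion and early repopulation. The ratio was 83.3 at DEP2, 167 at DEP7 and 286 at DEP10, then 222 at REPOP3 and 250 at REPOP5. Each came from 1 or 2 Mki67 counts, and DEP5 and DEP21 were at 0. These groups held 3 to 24 marker counts, too few to rank them against REPOP14. REPOP14 was above REPOP10 and REPOP7 with all 20 markers only, and above CD, REPOP21 and REPOP60 with both sets. With all 20 markers the single mice of REPOP14 stood at 8.89 to 14.4, and the highest REPOP21 mouse stood at 9.54. Markers of other cell types gave nearby values: the summed CPM of 8 macrophage and monocyte markers was 16.5 to 20.2 at REPOP14 and 12 to 17.5 in CD, with 1 and 2 of the 8 at 0. The summed CPM of 8 neutrophil markers was 0.581 to 3.99 and 0.387 to 4.90, with none at 0 in either group. Which cells carried the Mki67 RNA was not tested.

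**Figure D3:**
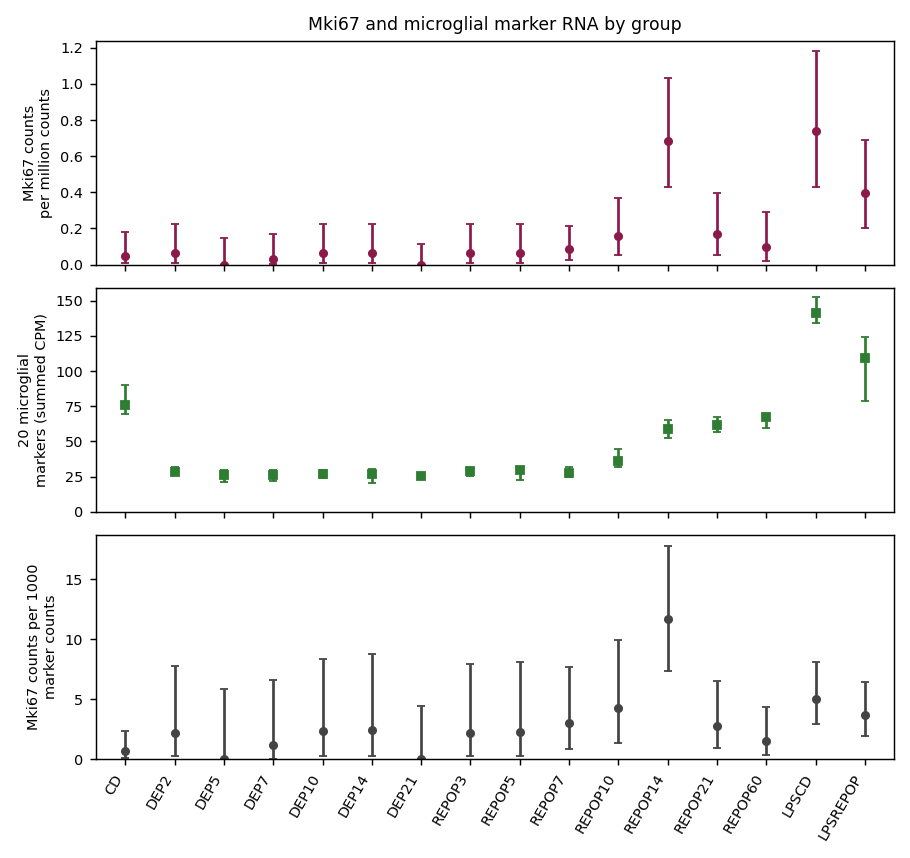
By group, the pooled CPM of Mki67 (top, with 95% exact Poisson intervals), the summed CPM of 20 microglial markers (middle, median with bars from the lowest to the highest mouse) and Mki67 counts per 1000 marker counts (bottom, with 95% exact binomial intervals). REPOP14 stands at 0.682 CPM in the top panel and at 11.7 in the bottom panel, while the median marker sum is 35.9 at REPOP10, 58.6 at REPOP14 and 67.2 at REPOP60, and the LPSCD mice lie at 134 to 153.

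Across all 26 comparisons (each DEP and REPOP group with CD, each REPOP group with DEP14, successive repopulation days, and the LPS groups), 0 of the 37 genes were DEGs in edgeR's quasi-likelihood test, and 0 were DEGs with DESeq2. Between 33 and 37 of them passed the filter on low counts in each comparison. A gene that was not tested, or to which DESeq2 gave no FDR, counted as not called. Among all genes tested, DEGs in either direction were 0.0501% at DEP2, 0.0345% at DEP5, 0.0625% at DEP7, 0.0585% at DEP10, 0.0419% at DEP14 and 0.0884% at DEP21 vs CD. They were 0.0377% at REPOP3, 0.0504% at REPOP5, 0.0678% at REPOP7, 0.0838% at REPOP10, 0% at REPOP14, 0.0548% at REPOP21 and 0% at REPOP60 vs CD. DEGs were 0.0285% at REPOP14, 0.0246% at REPOP21 and 0.0121% at REPOP60 vs DEP14, 0.00408% at REPOP14 vs REPOP10, 0.437% at LPSREPOP vs REPOP60 and 0% in the remaining comparisons. At LPSCD vs CD the number of DEGs depended on the fit: it was 0 of 23606 genes here, 21 with DESeq2, 39 with the group as the only term, 188 with no gene filter and 237 in the fit of all 16 groups, with 0 of the 37 genes among them each time. At an unadjusted p under 0.05, 64 of the 924 tests of these genes passed, 51 of 560 mitotic tests (9.11%) and 13 of 364 replication tests (3.57%), beside 5.9% over all genes and comparisons. Bub1b gave 15 of the 64, the centromere histone Cenpa 8, and Mki67, Rrm2 and Tk1 gave 6 each, while 21 genes never passed. These tests share mice, since CD enters 14 of them and DEP14 enters 8.

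**Figure D4:**
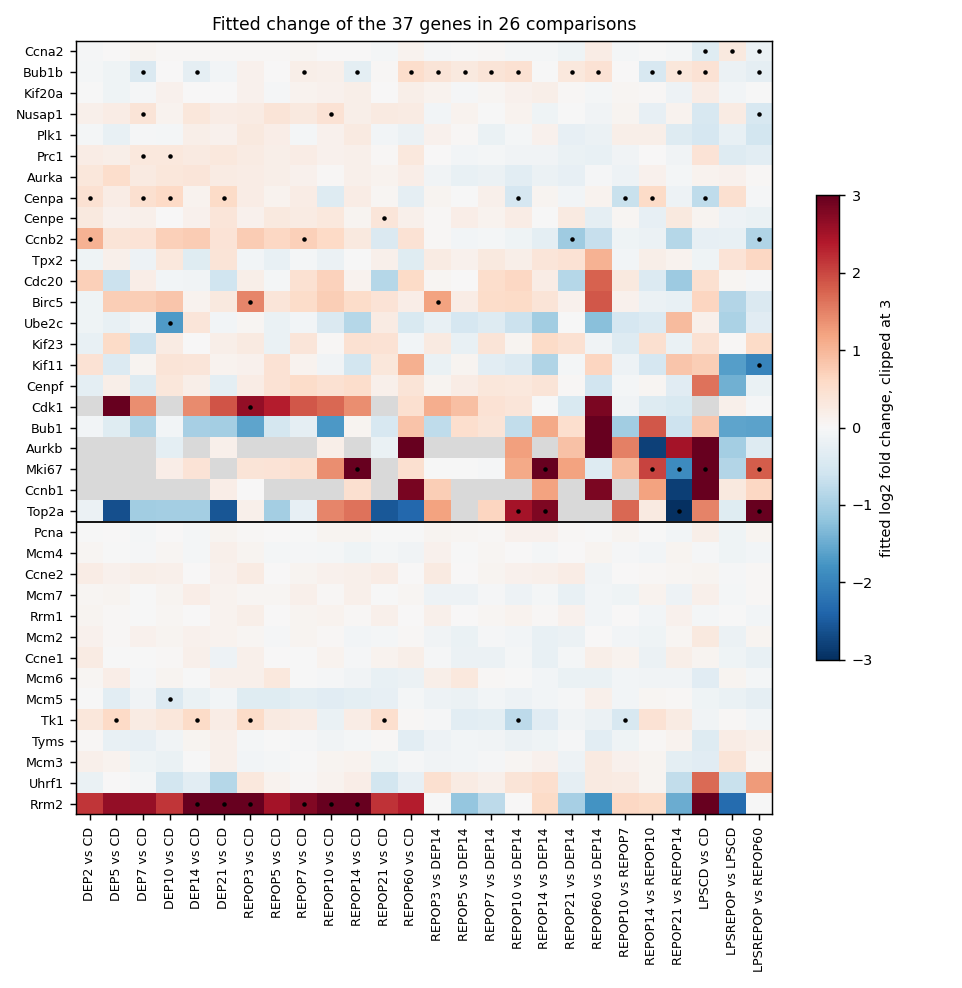
Fitted log2 fold change (colour, clipped at 3) of each gene in each comparison, mitotic genes above the line and replication genes below it, both ordered by level. Black dots mark an unadjusted p under 0.05 and grey marks genes that did not pass the filter on low counts. The strong colours lie mostly in the low-count genes at the bottom of each block, and the dots in the Bub1b and Cenpa rows lie on small changes.

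By repopulation day, 0 to 4 of the genes tested had an unadjusted p under 0.05 in the higher direction vs CD. At REPOP3 vs CD 4 of 36 genes were higher (2.88% of all genes) and 0 lower (2.31%). At REPOP5 vs CD 0 of 35 were higher (3.4%) and 0 lower (3.34%), and at REPOP7 vs CD 3 of 35 were higher (2.89%) and 0 lower (2.83%). At REPOP10 vs CD 2 of 36 were higher (6.17%) and 0 lower (6.05%), and at REPOP21 vs CD 2 of 34 were higher (7.52%) and 0 lower (9.32%). At REPOP60 vs CD 1 of 37 was higher (1.69%) and 0 lower (1.53%). The share in the higher direction was above its background at REPOP3, REPOP7, REPOP14 and REPOP60 and under it at REPOP5, REPOP10 and REPOP21, on counts of 4 or fewer. At REPOP14 vs CD 2 of 36 were higher (1.82%), Mki67 and Rrm2, and 1 was lower (1.6%), Bub1b. At REPOP14 vs DEP14 2 of 36 were higher (1.19%), Mki67 and Top2a, and 0 were lower (1%). The median log2 fold change of the mitotic genes tested vs CD was 0.19 at REPOP3, 0.17 at REPOP5, 0.21 at REPOP7, 0.15 at REPOP10, 0.17 at REPOP14, 0.04 at REPOP21 and 0.24 at REPOP60, beside 0.00194 to 0.00747 over all genes. That of the replication genes was 0.12, 0.01, 0.02, 0.06, 0.05, -0.02 and -0.00228 on the same days. Against DEP14 the REPOP14 medians were 0.11 for mitotic and -0.06 for replication genes. Over all members tested vs CD, the median ran from -0.00585 at DEP7 to 0.14 at DEP21 in depletion. It ran from 0.0256 at REPOP21 to 0.157 at REPOP3 in repopulation.

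A further test asked whether a gene differed among the 16 groups at all, in a fit of all 65 mice with group and suffix. It passed at an FDR under 0.01 for 3 of the 37 genes (8.11%), Mki67 (FDR 0.000634), Bub1b (FDR 0.00357) and Cenpa (FDR 0.00430), and for 2.24% of the 28211 genes tested in edgeR. Top2a had an FDR of 0.0238. For Mki67 this rests on REPOP14 and the LPS groups: its FDR was 0.0493 without the LPS groups, 0.0927 without REPOP14 and 0.836 without both, and 0.6 in the RE mice alone (edgeR, settings chosen after the data were seen). Without REPOP14, Cenpa alone passed, and without the LPS groups, and also in the RE mice alone, none of the 37 passed, where 55 and 31 genes of all tested did.

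Over the 12 replication genes measured above the floor, the highest of the 16 group means was 1.18-fold (Mcm7) to 1.72-fold (Tk1) the lowest. Of the other 2, Rrm2 is described above, and Uhrf1 had group means from 0.163 CPM at REPOP60 to 0.675 in LPSCD. In CD the MCM helicase subunit Mcm2 had 11.5 ± 1.06 CPM (SD, n = 5), and REPOP14 was its lowest group with 10.8 ± 0.733 (n = 4), while LPSCD had 14.6 ± 3.81 (n = 3). Mcm3, another subunit, was at 2.34 ± 0.532 CPM in CD and 2.55 ± 0.471 at REPOP14. Pcna was at 24.6 ± 4.05 CPM in CD and 26.9 ± 5.56 at REPOP14. The means of these 3 genes differed by less than the larger SD. Tyms, which makes thymidylate, was at 4.69 ± 0.901 CPM in CD and 4.5 ± 0.941 at REPOP14. Rrm1, the constant subunit of ribonucleotide reductase, was at 32 ± 3.17 and 33.6 ± 4.90 CPM. Tk1, thymidine kinase of the salvage route, varied most, with log2 fold changes of 0.59 ± 0.24 at DEP5, 0.57 ± 0.20 at DEP14 and 0.49 ± 0.20 at REPOP21 vs CD, of -0.79 ± 0.24 at REPOP10 vs DEP14 and of -0.48 ± 0.22 at REPOP10 vs REPOP7, with FDRs of 0.186 to 1 in edgeR. Mcm5 had -0.43 ± 0.19 at DEP10 vs CD (FDR 0.760, edgeR).

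As a description without a test, the mean log2(CPM + 1) of the mitotic genes differed from CD by 0.11 at REPOP3, 0.08 at REPOP5, 0.09 at REPOP7, 0.09 at REPOP10, 0.11 at REPOP14, 0.05 at REPOP21 and 0.05 at REPOP60, where the CD mice had a mean of 1.45 ± 0.05 (SD, n = 5). In depletion the mitotic difference was 0.07 at DEP2, 0.06 at DEP5, 0.04 at DEP7, 0.1 at DEP10, 0.06 at DEP14 and 0.08 at DEP21. These values overlap those of repopulation. The REPOP14 difference was 0.15 within the RE mice and -0.04 within the re mice. The second value rests on REPOP14 replicate 1 alone and is smaller in size than the CD SD. A difference between the suffixes cannot be read from it. The mean of the replication genes differed from CD by 0.08 at REPOP3, 0.02 at REPOP5, 0.01 at REPOP7, 0.02 at REPOP10, 0.03 at REPOP14, 0.03 at REPOP21 and -0.03 at REPOP60, beside a CD mean of 2.79 ± 0.02. In depletion this difference was 0.09 at DEP2, 0.05 at DEP5, 0.004 at DEP7, 0.01 at DEP10, 0.07 at DEP14 and 0.08 at DEP21. On the authors' FPKM values the mitotic difference was -0.00719 at REPOP3, -0.0110 at REPOP10 and -0.0345 at REPOP14, and the replication difference was -0.0154 at REPOP3, -0.0395 at REPOP5, -0.0230 at REPOP14 and 0.0378 at REPOP60, so that the sign of each of these turned with the unit.

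Bub1b, a kinase of the spindle checkpoint (ENSMUSG00000040084, chr 2, 118598211 to 118641591), passed the test among the groups through changes of small size. The 5 CD mice had 25, 34.1, 38.7, 31.6 and 29.5 CPM, and the 4 DEP7 mice had 30.6, 24.1, 18.5 and 21.2. At REPOP14 it was at 24.7, 29.1, 23.5 and 28.4, and at REPOP60 at 44.3, 32.2, 36.7 and 43.0. The 3 RE mice of DEP7 and 2 mice of REPOP14 were below every CD mouse, and 2 mice of REPOP60 were above every CD mouse. The log2 fold change was -0.43 ± 0.12 at DEP7 vs CD (FDR 0.186, edgeR), -0.27 ± 0.11 at DEP14 vs CD (FDR 0.905), -0.30 ± 0.10 at REPOP14 vs CD (FDR 0.995) and 0.52 ± 0.12 at REPOP60 vs CD (FDR 0.472), the last resting on the re CD mice at 25 and 29.5 CPM. It was 0.39 ± 0.11 at REPOP3 vs DEP14 and 0.39 ± 0.09 at REPOP7 vs DEP14 (FDR 1 and 0.999, edgeR), -0.47 ± 0.13 at REPOP14 vs REPOP10 (FDR 0.612) and 0.35 ± 0.10 at REPOP21 vs REPOP14 (FDR 0.565). With the replicate number as a block the FDR was 0.000719 for DEP7 (edgeR), although equal numbers belong to separate mice. For REPOP60 the block and the suffix term left the difference to replicate 1 of each group, with a log2 fold change of 0.83. Over all alternatives the FDR was 0.000606 to 0.917 for DEP7 and 0.00293 to 1 for REPOP60. Their log2 fold changes were under 1 in size throughout. Without DEP7 replicate 1, the re mouse, the DEP7 value was -0.71 (FDR 0.00460, edgeR).

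Bub1b varied with a neighbouring gene. Over 65 mice, with the mean of each suffix removed, log2(CPM + 1) of Bub1b had a Pearson r of 0.712 with Bmf, a BH3-only gene of cell death that lies 48523 bases before it (chr 2, 118528757 to 118549687). The 8 other genes within 200 kb at a mean CPM of at least 1 had r of -0.163 to 0.211 with Bub1b. Bmf was at 13.2 to 19.9 CPM in CD (median 16), 6.37 to 16.7 at DEP7 (median 9.24), 8.59 to 13.1 at REPOP14 (median 12.2) and 16.6 to 20.5 at REPOP60 (median 18.0). These correlations describe mice that share libraries and depth across genes and carry no test.

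Cenpa, the histone variant that marks centromeres, was at 4.52, 4.16, 2.97, 3.29 and 4.75 CPM in the CD mice and at 5.27, 6.83, 5.78 and 5.47 in the DEP10 mice. All 4 DEP10 mice were above every CD mouse. It was at 2.60, 3.08, 2.73 and 3.45 at REPOP10, at 4.55, 4.77, 4.06 and 4.37 at REPOP14 and at 3.10, 2.16 and 2.88 in LPSCD. REPOP14 replicate 2, at 4.77, lay above the CD range and the other REPOP14 mice lay within it, and the REPOP10 mice lay below every REPOP14 mouse. The log2 fold change was 0.48 ± 0.19 at DEP7, 0.60 ± 0.18 at DEP10 and 0.58 ± 0.19 at DEP21 vs CD (FDR 0.477, 0.498 and 0.814, edgeR), 0.45 ± 0.18 at DEP2 vs CD (FDR 1), -0.66 ± 0.17 at REPOP10 vs REPOP7 (FDR 0.852) and 0.58 ± 0.21 at REPOP14 vs REPOP10 (FDR 0.975).

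**Figure D5:**
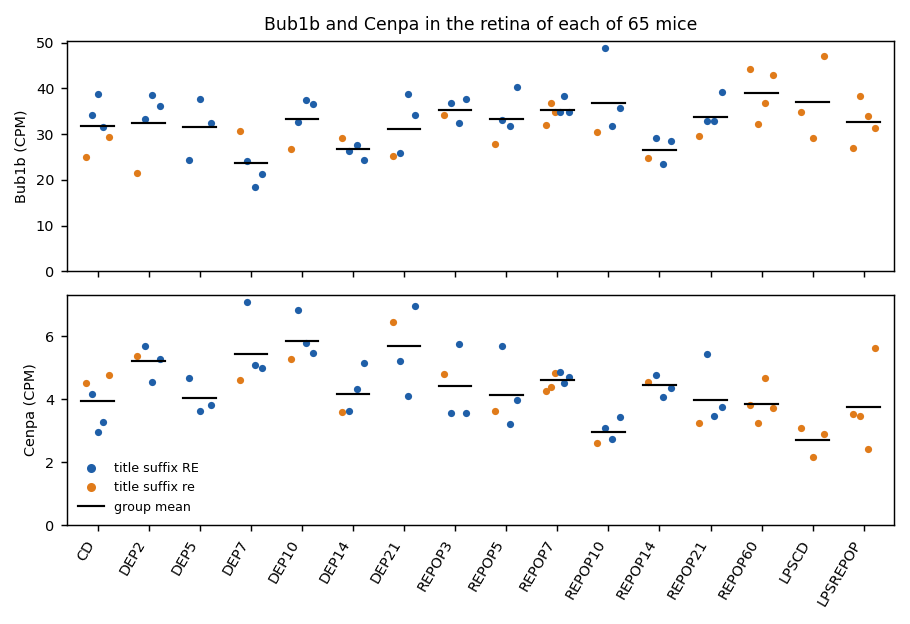
CPM of Bub1b and Cenpa in each mouse by group, coloured by title suffix, with a black line at the group mean. For Bub1b the group means run from 23.6 at DEP7 to 39.0 at REPOP60, and for Cenpa from 2.72 in LPSCD to 5.84 at DEP10.

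Other members reached an unadjusted p under 0.05 in few comparisons, without an FDR under 0.01. Ccnb2, a mitotic cyclin, had log2 fold changes of 1.04 ± 0.38 at DEP2 and 0.71 ± 0.30 at REPOP7 vs CD and -1.07 ± 0.47 at REPOP21 vs DEP14 (FDR 0.964, 0.804 and 0.919, edgeR). Nusap1, a spindle microtubule binder, had 0.39 ± 0.18 at DEP7 and 0.42 ± 0.19 at REPOP10 vs CD (FDR 0.573 and 0.360). The kinetochore motor Cenpe had 0.36 ± 0.16 at REPOP21 vs CD (FDR 0.233), and Ube2c, the ubiquitin-conjugating enzyme of mitotic exit, had -1.70 ± 0.82 at DEP10 vs CD (FDR 0.771).

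After lipopolysaccharide, 2 of 3 LPSCD mice and 1 of 4 LPSREPOP mice were at or above the lowest REPOP14 mouse in Mki67 CPM, and the other 4 were below it. The LPSCD mice had 2, 7 and 8 counts (0.258, 0.891 and 1 CPM) and the LPSREPOP mice 2, 3, 6 and 1 (0.262, 0.387, 0.759 and 0.128 CPM). All LPSCD mice were above every CD mouse, and LPSREPOP overlapped REPOP60 at 1 count. The pooled value was 0.737 CPM in LPSCD (0.430 to 1.18), a ratio to CD of 14.8 (3.50 to 131.6), and 0.396 in LPSREPOP (0.205 to 0.692), a ratio of 7.93 (1.77 to 72.9). At LPSCD vs CD the log2 fold change was 3.18 ± 1.12 (FDR 0.344, edgeR). The FDR was 0.0414 with the group as the only term and 0.0154 in the fit of all 16 groups, and 0.0154 to 1 over all alternatives that gave one. At LPSREPOP vs REPOP60 it was 1.81 ± 0.83 (FDR 0.32, edgeR). Mki67 per 1000 microglial marker counts was 5.05 in LPSCD (2.94 to 8.10) and 3.66 in LPSREPOP (1.89 to 6.41), with marker sums of 134 to 153 and 78.5 to 124 CPM and no marker at 0. With all 20 markers the interval in LPSCD overlaps that at REPOP14 and that in LPSREPOP does not. With the 11 markers at 0 at DEP14, LPSCD had 16.4 (9.54 to 26.5) and LPSREPOP 14.1 (7.27 to 24.8). Neither interval then overlaps that at REPOP14 (35.6 to 88.2). All these intervals leave out differences between mice. With all 20 markers the single mice were at 1.93 to 6.58 in LPSCD and 1.63 to 6.12 in LPSREPOP, all under the lowest REPOP14 mouse at 8.89. Neutrophil markers summed to 2.42 to 4.39 CPM in LPSCD and 1.54 to 12.8 in LPSREPOP, with 0 and 1 of the 8 at 0, and their part in the Mki67 counts was not tested.

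Of the other genes after lipopolysaccharide, the 10 low-count genes gave a pooled CPM of 3.60 in LPSCD (2.87 to 4.46), a ratio to CD of 2.57 (1.81 to 3.68), and 2.12 (1.46 to 3.10) without Mki67, with 12, 34 and 37 counts in the 3 mice. The mouse with 12 lay within the CD range of 9 to 14. At LPSCD vs CD 2 of 36 genes had an unadjusted p under 0.05 in the higher direction (5.63% of all genes) and 2 in the lower (4.91%), Cenpa with -0.77 ± 0.28 (FDR 0.345) among the lower and Bub1b with 0.44 ± 0.18 (FDR 0.403) among the higher. At LPSREPOP vs REPOP60 2 of 37 were higher (7.54%) and 5 lower (6.41%), the spindle motor Kif11 with -1.97 ± 0.90 (FDR 0.318, edgeR) being the largest of the lower. Ccna2 was higher in LPSREPOP than in LPSCD by 0.30 ± 0.13 (FDR 0.617, edgeR). The difference between the LPS response in CD and in repopulated retina, LPSCD minus CD against LPSREPOP minus REPOP60, passed for none of the 37 genes in edgeR. The lowest FDR was 0.181 for the midzone protein Prc1 (0.74 ± 0.21 on the log2 scale), and 0.00354% of 28211 genes passed at an FDR under 0.01.

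Several of the 37 genes differed by title suffix. In the fit of all mice 9 were higher in RE than in re mice at an FDR under 0.01 (18.7% of all genes) and 1 was lower (19.3%). The higher ones were Cenpf (log2 difference 1.39), Kif11 (1.10), Cenpe (0.64), Ccne2 (0.62), Tpx2 (0.60), Kif20a (0.40), Pcna (0.40), Nusap1 (0.38) and Rrm1 (0.31), and Tk1 was lower (-0.42). Mki67, Top2a and Rrm2 were not among them.

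Wider lists gave a view of the remaining cell-cycle genes: 51 other mitotic genes, 50 other replication genes and 26 cell-cycle control genes. At REPOP14 vs CD 2 of 47 other mitotic genes tested had an unadjusted p under 0.05 in the higher direction and 0 in the lower, 3 and 0 of 49 other replication genes, and 2 and 0 of 25 control genes, beside 1.82% and 1.6% of all genes, and none of them was a DEG. DEGs appeared at LPSREPOP vs REPOP60, where 0.393% of all genes were DEGs in the higher direction and 0.0441% in the lower, and in no other comparison. Kif4, a chromosome motor, was at 17.4, 19.3, 20.4 and 18.0 CPM at REPOP60 and at 3.67, 4.77, 3.54 and 8.07 in LPSREPOP. These groups do not overlap, and Kif4 fell by 1.91 ± 0.17 on the log2 scale (FDR 6.31e-08, edgeR). In CD the same gene was at 12 and 14.8 CPM in the 2 re mice and at 3.45, 4.38 and 4.70 in the RE mice, so that its spread there followed the suffix. In LPSCD, all re, it was at 4, 19.2 and 2.88. Kif4 overlaps Pdzd11 on the opposite strand, and the sources used here do not say whether strand was used in counting. The level of Kif4 is therefore uncertain, and the part of Pdzd11 in it was not tested. Ccnd2, a D-type cyclin of G1, was at 2.10, 1.56, 2.72 and 2.26 CPM at REPOP60 and at 4.07, 7.22, 7.97 and 3.07 in LPSREPOP, with no overlap, and rose by a log2 fold change of 1.36 ± 0.27 (FDR 0.00328, edgeR). Mcm10 (-0.91, FDR 0.000529) and Ccnd1 (0.41, FDR 0.00860) passed the FDR in that comparison but not the fold threshold.

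The patterns most like those of these genes were found over 65 mice with the mean of each suffix removed, as a description. Over the 15766 genes compared, at a mean CPM of at least 1, the mean of the mitotic genes had its highest Pearson r outside the cell-cycle lists with Lsg1 (0.596), Cdc40 (0.585), Zfp738 (0.572), Rnaseh1 (0.570) and Mrpl9 (0.559). Among its own members r was highest for Cenpf (0.525), Prc1 (0.486), Kif23 (0.468), Cenpe (0.438) and Kif20a (0.429), and lowest for Ccna2 (-0.191), Aurkb (-0.00243), Ccnb1 (0.0675), Tpx2 (0.0763) and Ube2c (0.0789), which spans both signs. Mki67 alone had its highest r with Cd68 (0.627), C1qc (0.624), Tgfbi (0.619), C1qb (0.617) and Lgals3bp (0.595), of which Cd68 encodes a lysosomal protein of macrophages and C1qb and C1qc encode complement chains made by microglia. The lowest r of Mki67 were close in size to these, with Vopp1 (-0.636), Arr3 (-0.634) and Pigg (-0.612). The 65 mice include the LPS groups, and which cells carried the Mki67 RNA was not tested. The mice share groups, depth and library preparation across these genes.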

How the data were processed

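Retinal RNA of 65 mice in 16 groups was sequenced on a BGISEQ-500 (single-end, 50 bp). The paper describes poly-A selection or removal of ribosomal RNA, without saying which libraries had which. The deposited counts, not normalized, were made by the authors with HTSeq from HISAT2 alignments on mm10, and the deposited FPKM values by the authors with StringTie. Tool versions and the strand setting were not given in the sources used here. The labels gave groups and replicate numbers. Symbols were matched for 50462 of the 50686 identifiers (GENCODE M21, GRCm38). No mouse was left out, and no pair of libraries was identical.

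The counts were tested with edgeR 4.0.16 in R 4.3.3 (TMM, quasi-likelihood F test) on the mice of the 2 groups compared, with group and title suffix as terms, because the methods describe an additive batch term without naming the batches. A gene was tested if it had at least 1 count in a share of at least 0.5 of either group's mice. DEGs had an FDR (Benjamini-Hochberg) below 0.01 with a log2 fold change larger than 1 in size. The SE is the log2 fold change over the square root of F. CPM values use TMM library sizes over all mice, log levels a pseudocount of 1, and intervals are exact at 95%. The fits were tested on simulated data. No recovery value is given here for genes with counts as low as those of Mki67, Top2a, Cdk1 and Rrm2. Python 3.11.15, pandas 2.3.3, scipy 1.17.1, matplotlib 3.10.9 and limma 3.58.1 were also used.

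Replicate numbers belong to separate mice. Deviations of same-numbered mice from their group means correlated over 0.1 in every pair in 9 of 26 comparisons, where the mice also share the suffix, and in 0 once suffix means were removed. Alternatives were DESeq2 1.42.0, RLE, filterByExpr, no gene filter, the group as the only term, the replicate block, RE mice only, all 16 groups in one fit, an FDR under 0.05 without the fold threshold, a pseudocount of 0.1, FPKM, and leaving out each mouse. Chosen after seeing the data were the test among all groups with its settings, the LPS interaction, pooled counts, Mki67 per microglial marker count, the Bub1b neighbours and the likeness to Mki67.

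Values are named for Mki67, Top2a, Cdk1, Ccnb1, Birc5, Mcm2, Mcm3, Pcna, Rrm2 and Tyms, for the 3 members of largest absolute log2 fold change at an unadjusted p under 0.05 in each comparison, for called genes of the wider lists, and for the 5 highest and lowest correlations. For the likeness to Mki67 the 3 lowest are named. Other genes entered the text after a look at their values. The members and the gene lists were chosen with earlier results of these data known.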

Additional observations from a re-analysis of the deposited data

Results flagged for a closer look

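Of 168 sets of values by group and item, 15 had 1 mouse far from the others of its group. The rule sets the gap to the nearest mouse against the range of the group and assumes continuous values. It always flags a group with 1 count in 1 mouse and 0 in the others, so no number expected by chance can be given. Most of the 15 rest on 1 or 2 counts. For the mean log2(CPM + 1) of the mitotic genes, CD replicate 2M was lowest at 1.36, with the other CD mice at 1.46 to 1.48. For Mki67, log2(CPM + 1) was 0.304 in DEP2 replicate 4 and 0.170 in DEP7 replicate 4, where the other mice of those groups were at 0. It was 0.715 in REPOP21 replicate 3, which held 5 counts while the other 3 mice of that group were at 0, and 0 in REPOP60 replicate 3, with the others at 0.176 to 0.180. For Top2a it was 0.165 in DEP7 replicate 3, 0.160 in DEP10 replicate 2, 0.178 in DEP14 replicate 3 and 0.182 in REPOP5 replicate 3, each beside mice at 0. In REPOP14 replicate 1, the re mouse of that group, Top2a was at 0, with the RE mice at 0.459 to 0.550. For Rrm2 it was 0 in DEP7 replicate 1 beside 0.165 to 0.172, 0.340 in DEP14 replicate 1, 0.298 in REPOP3 replicate 4 and 0.329 in LPSREPOP replicate 4. In REPOP14 replicate 1, Rrm2 was at 0.722, beside 0.158 to 0.175 in the other mice of that group. The same library thus held the lowest Top2a and the highest Rrm2 of REPOP14, together with 7 Mki67 counts, the highest of the group.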

How the results depend on the processing

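None of the 37 genes was a DEG under any of the other settings, in all 229 counts recomputed over the 26 comparisons, nor in any of the 224 fits that left out 1 of the 65 mice (range 0 to 0). A gene that a setting did not test, or to which it gave no FDR, counted as not called. For such a gene the outcome was fixed in advance. In the test among the groups filterByExpr kept 24 of the 37 genes, without Mki67, Top2a, Cdk1 and Rrm2. Of 461 recomputed fold changes of the 55 named results, none changed sign. These results were picked at an unadjusted p under 0.05 in edgeR's test on the same mice, so a change of sign was unlikely from the start. With the replicate number as a block the count of called genes was 0 in every comparison it could be fitted for, so the pairing changed no call. The count of genes that differed among the groups was 3 (Mki67, Bub1b and Cenpa). It was 3 with RLE, 2 with the group as the only term (Bub1b lost, FDR 0.044), 2 with filterByExpr, which did not test Mki67 or Top2a, and 4 with no gene filter (Top2a added, FDR 0.00559). It became 0 in the RE mice alone, 0 without the LPS groups, 1 without REPOP14 and 0 without both. The mean log2 level of the mitotic genes minus CD moved by more than 1 SD in several settings. With a pseudocount of 0.1 it was 0.191 at REPOP3, 0.153 at REPOP7, 0.257 at REPOP14, 0.122 at REPOP60 and 0.265 in LPSCD. With the FPKM values it was -0.00719 at REPOP3, 0.00534 at REPOP7, -0.0110 at REPOP10, -0.0345 at REPOP14 and -0.0228 in LPSCD, and in the re mice alone 0.00156 at REPOP5 and -0.0409 at REPOP14. For the replication genes a pseudocount of 0.1 gave 0.172 at REPOP3, 0.139 at REPOP14 and 0.124 in LPSCD. FPKM gave -0.0154 at REPOP3, -0.0395 at REPOP5, -0.0230 at REPOP14 and 0.0378 at REPOP60, and the re mice alone gave -0.0907 at REPOP10, 0.00251 at REPOP14 and -0.0580 at REPOP21. The values in the re mice alone rest on replicate 1 of each REPOP group. The cause of these shifts was not tested. Leaving out 1 mouse put the Mki67 log2 fold change at 3.18 to 4.06 for REPOP14 vs CD and at 2.31 to 5.56 for LPSCD vs CD. At this depth a gene below 0.342 to 0.587 CPM rests on fewer than 3 reads a mouse. What size of difference between single days could have been detected for the 10 low-count genes was not tested.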
